A study of Mus musculus with 200 samples.

Results

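The mouse ribonucleases RNase P and RNase MRP were followed through 10 of their components, of the 22033 genes in the tables: the protein subunits *Pop1*, *Pop4*, *Pop5*, *Pop7*, *Rpp21*, *Rpp30*, *Rpp38* and *Rpp40*, and the RNA subunits *Rpph1* (RNase P) and *Rmrp* (RNase MRP). Members were taken by symbol, and all 10 were found. The set had been selected on its measured levels by genotype at *Rpph1* and on correlation with *Pop1*, so those 2 measures are given as descriptions without a test. The rule that set the members also names their levels by their own genotype, their allele fractions and stage. For these the number of members past the threshold of the fit over all genes is given as a description beside the share of all genes, with no p-value for a member, and nothing is drawn from it. Counts of members at an unadjusted p under 0.05 are descriptions in the same way. Whole embryos without extra-embryonic tissue were collected at E11.5 and profiled by 3SEQ, a 3′-biased sequencing of poly(A)+ RNA. The F1 embryos were 8 with a C57BL/6J (B6) mother and a CAST/EiJ (Cast) father (B6 × Cast) and 8 from the reciprocal cross (Cast × B6), and all of them are heterozygous at every autosomal difference between the strains. The N2 embryos were backcrosses of F1 animals to B6, 89 with a B6 mother and an F1 father and 65 with an F1 mother and a B6 father. Each of the 154 N2 embryos is therefore B6/B6 (homozygous) or B6/Cast (heterozygous) at a gene, and none is Cast/Cast.

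RNase P cuts the 5′ leader from precursor transfer RNAs, and RNase MRP takes part in the maturation of ribosomal RNA. Each enzyme is built on 1 catalytic RNA, and most of the protein subunits are shared between the 2 particles. Pop1 is the largest protein subunit. The 2 RNA subunits are transcribed by RNA polymerase III from promoters that lie wholly upstream of the gene. Such a promoter usually carries a distal octamer bound by POU2F1 (OCT1). Since both RNAs lack the poly(A) tail of an mRNA and the libraries were made from poly(A)+ RNA, the read counts of *Rpph1* and *Rmrp* need not follow the amount of the working RNA.

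*Rpph1* is the locus at which the embryos were classed below, and it shares its upstream sequence with a protein-coding neighbour. It matches an unnamed misc_RNA gene of the GENCODE annotation on chromosome 14 (mm9 51427124 to 51427442, minus strand), head to head with *Parp2* (51427621 to 51440975, plus strand), a poly(ADP-ribose) polymerase. *Rmrp* lies on chromosome 4 (43505660 to 43505930, minus strand), where the body of the RNA overlaps the first exon of 1 transcript of *Ccdc107* on the plus strand, just downstream of the window shown. The strand setting of the read counting is not given in the sources used here, so reads of *Rmrp* and of that exon may not be told apart. The promoters of both RNA genes are shown because they control the only members that are not protein-coding. Each line runs 5′ to 3′ on the minus strand of mm9, starts upstream and ends inside the RNA, stays outside the exons of the neighbour, and has in capitals the octamer, searched as ATGCAAAT or its complement on the other strand, ATTTGCAT.
Rpph1, chr14:51427393-51427620: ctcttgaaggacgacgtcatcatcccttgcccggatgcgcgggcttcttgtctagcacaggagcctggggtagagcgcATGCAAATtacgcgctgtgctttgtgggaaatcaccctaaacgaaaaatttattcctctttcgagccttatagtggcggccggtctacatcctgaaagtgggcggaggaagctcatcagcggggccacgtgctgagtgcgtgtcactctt
Rmrp, chr4:43505896-43506180: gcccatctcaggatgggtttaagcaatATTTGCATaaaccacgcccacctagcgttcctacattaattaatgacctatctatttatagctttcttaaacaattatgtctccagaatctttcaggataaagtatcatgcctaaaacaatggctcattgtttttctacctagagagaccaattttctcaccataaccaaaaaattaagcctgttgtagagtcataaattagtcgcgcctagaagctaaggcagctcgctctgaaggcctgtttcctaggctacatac
The octamer started 100 bases before the annotated start of *Rpph1* and 223 bases before that of *Rmrp*. Among 32851 RefSeq promoter windows (GRCm38.p6), 1.32% held the octamer in a window placed as that of *Rpph1* and 1.70% in one placed as that of *Rmrp*. A match describes the letters and was not tested as a binding site.

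The reads on genes numbered 15703888 to 38234229 in an F1 library and 245220 to 5370322 in an N2 library. Levels are reads per 1000000 of that number (RPM). At the median N2 depth *Pop1* rested on 38.5 reads, *Rpp21* on 309.5, *Rpph1* on 18.0 and *Rmrp* on 5.00. N2 embryos were spread over 14 sequencing lanes, and lane took between 28.6% (*Pop1*) and 76.9% (*Rpp30*) of the variance of log2(RPM + 0.5) in the members, beside a median of 57.5% over all genes of at least 5 RPM. Lane was therefore removed from levels before embryos of different genotype were compared. Embryos are littermates in 29 N2 and 4 F1 litters, so the p-values below measure the spread between these embryos. The tissue matched its label: 9 of 9 embryo markers had reads, with a summed level of 26708 to 170957 RPM in N2 embryos, while the 6 placenta markers in the tables summed to at most 4.48 RPM. *Rpph1* also has 3 related genes in the tables, whose sequences were not compared here. *Rprl1* and *Rprl2* had no reads and *Rprl3* had a mean of 0.0817 RPM, and since reads with a second good match were discarded by the authors, the level of *Rpph1* is uncertain.

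*Pop1*, on chromosome 15 (34425059 to 34460403, plus strand), was lower in embryos that carried a Cast allele at *Rpph1* on chromosome 14. In the 68 embryos that were B6/B6 at *Rpph1* the level of *Pop1* ran from 4.74 to 36.9 RPM with a median of 24.3. In the 86 B6/Cast embryos it ran from 2.89 to 25.1 RPM with a median of 15.3. The 2 classes overlap, yet only 2 of the 86 B6/Cast embryos were above the median of the B6/B6 class. The means were 22.9 ± 7.18 RPM (SD, n = 68) and 15.4 ± 4.86 RPM (SD, n = 86). After lane the difference was -0.51 ± 0.07 (SE) on the log2 scale, or 0.70 of the B6/B6 level. This contrast was used to choose the members and carries no test. In whole embryos, fewer cells that express a gene and less RNA per cell cannot be told apart.

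The genotype of *Pop1* itself went with no such difference. Among embryos that were B6/B6 at *Pop1*, the mean was 23.2 ± 7.62 RPM (SD, n = 38) with B6/B6 and 15.0 ± 4.74 RPM (n = 44) with B6/Cast at *Rpph1*. Among embryos that were B6/Cast at *Pop1*, it was 22.5 ± 6.68 RPM (n = 30) and 15.8 ± 5.06 RPM (n = 41). The step between the *Rpph1* classes was thus present on both backgrounds, and the step between the *Pop1* classes was within the SD of each group. The embryos that were B6/B6 at *Rpph1* had the higher mean in 13 of 14 lanes and in 23 of the 26 litters that held both classes. The exception among lanes held 4 B6/B6 embryos at 16.6 RPM and 8 B6/Cast embryos at 18.5 RPM.

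The size of the step was not the same in both backcrosses. With B6 mothers, *Pop1* had a mean of 24.7 ± 6.74 RPM (SD, n = 41) in B6/B6 and 15.5 ± 5.09 RPM (n = 48) in B6/Cast embryos. With F1 mothers the means were 20 ± 7.00 RPM (n = 27) and 15.2 ± 4.61 RPM (n = 38). After lane the differences were -0.71 ± 0.09 (SE) and -0.21 ± 0.12 on the log2 scale. The B6/Cast embryos lay at nearly the same level in both backcrosses, and the B6/B6 embryos were lower with F1 mothers. Only 1 of the 14 lanes held embryos of both kinds of mother, so mother and lane cannot be told apart here. The Cast allele came from the father with B6 mothers and from the mother with F1 mothers. Its parent of origin therefore cannot be told apart from mother and lane either. Depth was alike in the *Rpph1* classes, with medians of 2313928 and 2283450 reads, and so was stage, with medians of 50.0 and 48.5 somites.

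**Figure D1:**
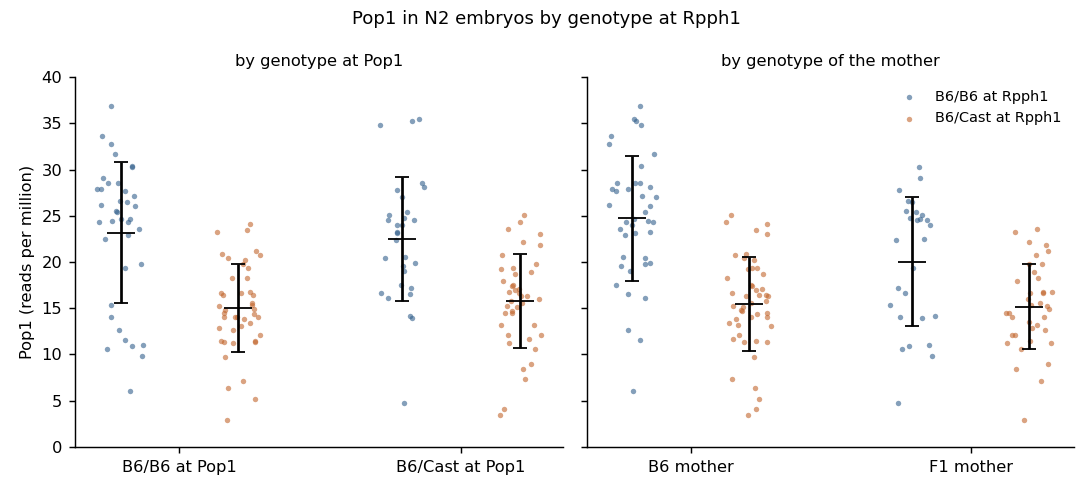
*Pop1* in RPM in single N2 embryos (points), split by genotype at *Rpph1* (blue, B6/B6; orange, B6/Cast) and by genotype at *Pop1* (left) or of the mother (right). Black marks are means ± SD. The B6/Cast groups centre between 15.0 and 15.8 RPM throughout, and the B6/B6 groups between 20 and 24.7 RPM.

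Along chromosome 14 the difference in *Pop1* was broad. Of 739 genes placed on the chromosome, 46 had the same genotypes as *Rpph1* in every embryo, and they span 1.5 Mb (51427124 to 52924803). Any of these 46 genes, among them *Parp2*, the ribonuclease A family genes *Ang* and *Rnase4*, *Supt16h*, *Hnrnpc* and *Mettl3*, gives the same value of -0.51. The largest difference on the chromosome, -0.53, was 6.24 Mb beyond *Rpph1*, over the 84 B6/Cast and 66 B6/B6 embryos with a genotype there. Its gap from the value at *Rpph1* is smaller than the SE of 0.07, so the 2 places are not ranked. The difference was -0.43 and -0.42 at 20 Mb to either side of *Rpph1*. On the distal side it was -0.26 at 30 Mb and -0.11 at 60 Mb, and on the proximal side it was still -0.35 at the first gene of the chromosome placed. At the genotypes of 20271 genes on the other autosomes, the largest difference in *Pop1* was -0.27, on chromosome 2. These embryos therefore place the difference on chromosome 14 over a broad stretch and do not separate *Rpph1* from its neighbours.

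**Figure D2:**
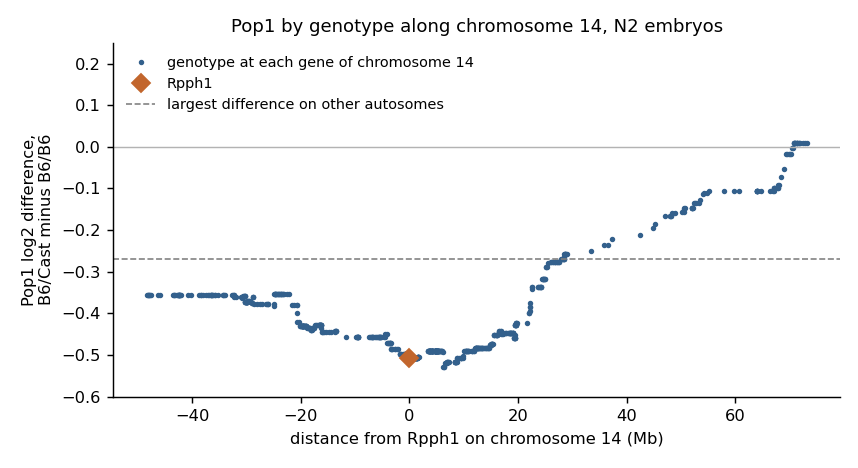
Difference in *Pop1* between B6/Cast and B6/B6 embryos, in log2(RPM + 0.5) after lane, for the genotype at each gene of chromosome 14 (points), against its distance from *Rpph1* in Mb. The diamond is *Rpph1* at -0.51, and the dashed line is the largest difference at any gene of the other autosomes, -0.27. The points form a broad trough around *Rpph1*.

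None of the other 7 protein subunits showed a step of that size. After lane, the difference by genotype at *Rpph1* was 0.08 ± 0.11 (SE) for *Pop4*, 0.01 ± 0.07 for *Pop5*, 0.04 ± 0.06 for *Pop7* and 0.06 ± 0.04 for *Rpp21*, on the log2 scale. It was 0.00 ± 0.17 for *Rpp30*, 0.06 ± 0.14 for *Rpp38* and -0.05 ± 0.13 for *Rpp40*. Without lane, *Rpp30* seemed to differ most, with a mean of 13.5 ± 16.5 RPM (SD) in B6/B6 and 21.4 ± 20.2 RPM in B6/Cast embryos, and that gap was gone once lane was removed. Over the 9406 autosomal genes of at least 5 RPM off chromosome 14, the median absolute difference was 0.05 and 95% lay under 0.17. Of the 8 protein subunits among the members, 7 were under that bound and *Pop1* was beyond it.

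*Rpph1* itself was also lower in embryos with a Cast allele there. Its level ran from 1.94 to 24.5 RPM with a median of 8.85 in B6/B6 embryos, and from 3.13 to 27.9 RPM with a median of 7.44 in B6/Cast embryos. The classes overlap over nearly their whole range. The difference after lane was -0.26 ± 0.08 (SE), with the B6/B6 mean higher in 12 of 14 lanes. With B6 mothers the means were 11.4 ± 5.20 and 8.93 ± 4.72 RPM (SD), and with F1 mothers 8.65 ± 3.33 and 8.37 ± 4.01 RPM. The backcross with the larger step in *Pop1* was also the one with the larger step in *Rpph1*, and whether the 2 are linked was not tested. Mother, lane and parent of origin of the Cast allele cannot be told apart in these steps either. *Rmrp*, the RNA of the other enzyme, differed by -0.15 ± 0.17.

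The neighbours of *Rpph1* differed in both directions. Of 12 genes listed around the locus, 6 had at least 5 RPM, and their differences by the same genotype ran from -0.26 ± 0.08 (SE) for *Tep1*, a protein of the telomerase and vault particles, to 0.88 ± 0.12 for *Ttc5*. *Parp2*, which shares its upstream sequence with *Rpph1*, differed by 0.10 ± 0.06.

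**Figure D3:**
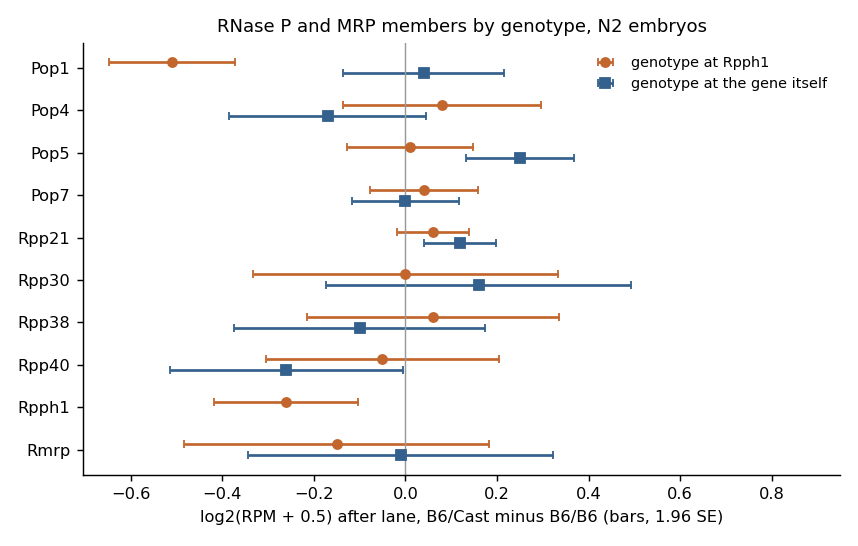
Difference between B6/Cast and B6/B6 N2 embryos for each member, in log2(RPM + 0.5) after lane, by genotype at *Rpph1* (orange circles) and at the gene itself (blue squares). Bars are 95% intervals from the standard error, and *Rpph1* has 1 value since both genotypes are the same. *Pop1* is lowest for *Rpph1* at -0.51, and *Pop5* is highest for its own genotype at 0.25.

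The genotype of each gene at its own place was compared by a two-sided rank-sum test after lane, with Benjamini-Hochberg q under 0.01. *Rpph1* was left out and *Rmrp* fell under the minimum of 5 RPM, so 8 members entered the fit and 1 was past the threshold, beside 19.6% of all genes, 10.4% as higher with Cast. That member was *Pop5*. It had 9.72 to 160.5 RPM (median 78.4) in the 75 B6/B6 embryos and 4.10 to 185 RPM (median 95.3) in the 79 B6/Cast embryos. The ranges overlap, and the log2 difference after lane was 0.25 ± 0.06 (SE). Of all genotypes in the genome, that of a gene on chromosome 5, where *Pop5* lies, gave the largest difference in *Pop5*, 0.26. That scan read the same levels of *Pop5* again, and nothing is drawn from it. Without removal of lane, *Pop5* was not past the threshold, at 0.18.

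*Rpp21*, the subunit specific to RNase P, was not past the threshold with lane alone removed. Its medians were 139.6 RPM in 85 B6/B6 and 152 RPM in 69 B6/Cast embryos, with a log2 difference of 0.12 ± 0.04 (SE). *Rpp40* differed by -0.26 ± 0.13 and *Pop4* by -0.17 ± 0.11. *Rpp30* differed by 0.16 ± 0.17 and *Rpp38* by -0.10 ± 0.14. *Pop1* differed by 0.04 ± 0.09. *Rmrp* differed by -0.01 ± 0.17 without the minimum, while *Ccdc107*, which overlaps it, differed by -0.19 ± 0.04 (q = 1.50e-05). With 15 principal components removed as well as lane, 4 of 8 were past the threshold: *Pop5*, *Rpp21* (0.10), *Pop4* (-0.22) and *Rpp40* (-0.20).

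Allele fractions compare the 2 alleles inside the same embryo. The B6 allele fraction (BAF) is the share of B6 among the votes, the estimated counts of reads that carry a B6 or a Cast base. A paired test over F1 and heterozygous N2 embryos was taken to call a gene at a Bonferroni p under 0.01 with a BAF outside 0.45 to 0.55. With at least 20 votes in every cross, 7 members entered the fit and 1 was past both bounds, beside 18.9% of all genes, of which 9.70% favoured B6 and 9.17% Cast. That member was *Pop4*, on chromosome 7, with more B6 than Cast votes. Its BAF was 0.525 to 0.674 in the 16 F1 embryos, above 0.5 in all 16, with a mean of 0.556 ± 0.0361 (SD). The heterozygous N2 embryos gave 3563 B6 and 2332 Cast votes, a BAF of 0.604. Over all 83 embryos the BAF was 0.567. In F1 embryos alone it was 0.559 and was not past the threshold.

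*Rpp21* had slightly more Cast than B6 votes in every F1 embryo. Its BAF was 0.440 to 0.474 in the F1 embryos, below 0.5 in all 16, with a mean of 0.458 ± 0.01 (SD), and it was 0.458 in heterozygous N2 embryos. The value stayed inside the bounds of 0.45 to 0.55. *Pop7* had 0.469 in F1 and 0.523 in N2 embryos, *Rpp30* 0.448 and 0.477, and *Rpp40* 0.510 and 0.568. *Rmrp*, with 4896 B6 and 4576 Cast votes in F1 embryos, lay at 0.517 in F1 and 0.515 in N2 embryos. *Ccdc107*, which overlaps it on the other strand, lay at 0.567 and 0.560 (adjusted p = 7.90e-15).

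*Rpph1* had few votes, with more for Cast. In the F1 embryos 196 B6 and 228 Cast votes gave a pooled BAF of 0.462, and single embryos ran from 0.273 to 0.706. In heterozygous N2 embryos 90.5 B6 and 145 Cast votes gave 0.385. Over 102 embryos the BAF was 0.435 and was not past the threshold. The level of *Rpph1* was thus lower in B6/Cast than in B6/B6 embryos, while inside B6/Cast embryos the Cast allele had at least as many votes as the B6 allele.

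*Pop1*, *Pop5* and *Rpp38* had too few votes to enter the fit. The F1 embryos gave 60 B6 and 77 Cast votes for *Pop1*, 11.0 and 10.0 for *Pop5*, and a single vote for *Rpp38*. *Pop5* had 2141 to 7724 reads in an F1 embryo, so its limit was the few votes and not its depth. An allelic difference in *Pop5* to set beside its genotype difference was not detectable with so few votes. In N2 embryos that were B6/B6 at *Pop1*, *Rpp40*, *Rpph1* or *Rmrp* no vote was for Cast.

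**Figure D4:**
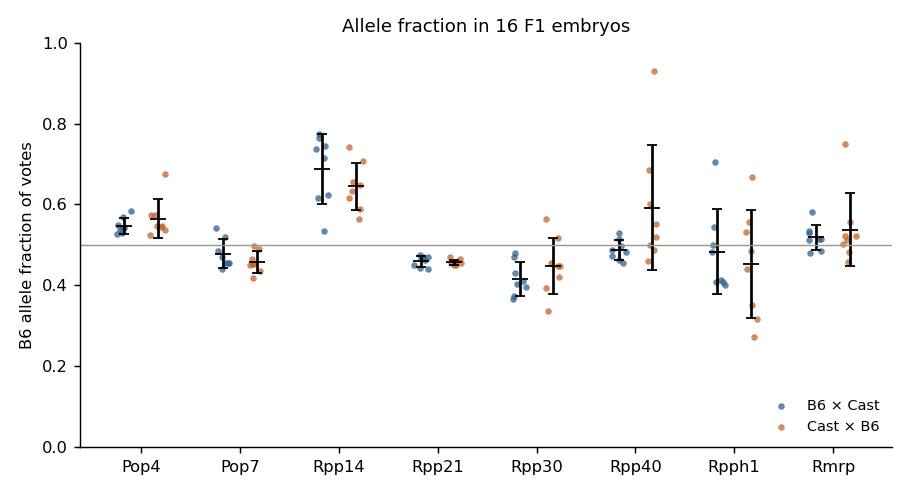
B6 allele fraction of the votes in each of the 16 F1 embryos (points; blue, B6 × Cast; orange, Cast × B6) for the 7 members with enough votes and for *Rpp14*, a further subunit. Black marks are means ± SD of each cross and the line is at 0.5. *Pop4* and *Rpp14* lie above the line in all 16 embryos and *Rpp21* below it, and *Rpph1*, with few votes, spreads from 0.273 to 0.706.

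No member passed the test of parent of origin. An exact permutation test of the BAF between the 2 crosses put 0 of 8 members past the threshold, beside 1.34% of all genes. The largest difference among them was in *Rpp40*, with a mean BAF of 0.488 ± 0.0252 (SD) in B6 × Cast and 0.592 ± 0.155 in Cast × B6 embryos. The Cast × B6 embryos ran from 0.460 to 0.930, with the second highest at 0.686. The BAF of 5 members could be set against somite number by Spearman's correlation. At a q under 0.1, 0 of them were past the threshold, beside 0.299% of all genes, 0.150% in each direction. The largest value was a rho of 0.39 for *Rpp30*, over 34 embryos.

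The level of each member was set against that of *Pop1* from embryo to embryo. These correlations also served to choose the members and are descriptions over 154 N2 embryos that share lanes and litters. After lane, Spearman's rho with *Pop1* was 0.23 for *Pop5* (Pearson's r = 0.37), 0.18 for *Rpp21* (r = 0.21), 0.14 for *Rpph1* (r = 0.16) and 0.10 for *Rpp30* (r = 0.19). It lay between -0.01 and 0.07 for *Pop4*, *Pop7*, *Rpp38*, *Rpp40* and *Rmrp*. Among 9998 other genes of at least 5 RPM the median was 0.07 and 95% were under 0.27, and no member passed that bound. The value of *Pop5* was 0.02 in the first flowcell and 0.36 in the second. Within the 68 embryos that were B6/B6 at *Rpph1* the highest rho was 0.39 for *Pop4*, followed by 0.33 for *Pop5*. Within the 86 B6/Cast embryos it was 0.38 for *Rpp21*, followed by 0.24 for *Pop5*, and *Pop4* was at 0.01. *Rpph1* had -0.06 and -0.01 in the 2 classes.

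The genes most like *Pop1* were in part its companions in genotype. The 5 with the highest rho were *Rec8*, a meiotic cohesin (0.50), *Ecd* (0.46) and *Med4*, a Mediator subunit (0.46), all 3 on chromosome 14, then *Zfp622* on chromosome 15 (0.45) and *Dhx30*, an RNA helicase, on chromosome 9 (0.44). Within the *Rpph1* classes, *Rec8* fell to 0.28 and 0.23, whereas *Dhx30* kept 0.41 and 0.53. The 5 lowest were *Tssk4* (-0.41) and *Ttc5* (-0.31) on chromosome 14, *Gss*, glutathione synthetase (-0.32), *Gchfr* (-0.30) and *Tgfb1* (-0.29). *Tssk4* and *Ttc5* were higher with a Cast allele at *Rpph1*, by 1.23 and 0.88 on the log2 scale, and within the classes their rho lay between -0.13 and 0.14.

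Over stage, from 42 to 57 somites in 147 N2 embryos, Spearman's correlation put 3 of 9 members past a q under 0.05, all 3 with a negative rho, beside 22% of all genes called and 7.97% called as falling. These were *Rpp30* with a rho of -0.31, *Rpp40* with -0.24 and *Pop4* with -0.23. *Rpp38* had -0.21, *Rpph1* had -0.14 and *Pop1* had a rho near 0. None of the 3 was past the threshold once lane was taken out of the ranks, where *Rpp30* had -0.18, *Rpp40* 0.05 and *Pop4* 0.02. There *Pop7* was the 1 member past it, with 0.26. *Pop7* had a rho of -0.27 with B6 mothers alone and 0.49 with F1 mothers alone, a difference that was not tested. With lane in the model, edgeR and DESeq2 each called 0 of 10, with 1 of 10 at an unadjusted p under 0.05. Lane and stage moved together in these litters, and their parts in the 3 correlations were not separated.

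By the genotype of the mother, the two-sided Mann-Whitney U test called 1 of 9 members at a Bonferroni p under 0.01, beside 5.03% of all genes, 4.28% as higher with F1 mothers. *Rpp40* was higher with F1 mothers, with 0.825 to 58.0 RPM (median 32.5) against 1.38 to 66.2 RPM (median 18.4) with B6 mothers. The ranges overlap fully, and the log2 difference was 1.00 (adjusted p = 0.00358). The difference was 1.32 in the first and 0.71 in the second flowcell, and neither passed, nor did the test over litter means or edgeR. *Rpp30* differed by 1.46 (adjusted p = 1.00) and *Pop5* by 0.47 (adjusted p = 0.856). Because 13 of the 14 lanes hold embryos of a single kind of mother, lane and mother cannot be told apart in any of these values. The parent that gave the Cast alleles differs with the mother as well.

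Between the reciprocal F1 crosses, edgeR's quasi-likelihood test called 2 of 10 members at an adjusted p under 0.05, beside 25.9% of all genes. *Pop4* was higher in Cast × B6, at 86.8 to 141 RPM (median 106) against 56.7 to 97.9 RPM (median 84), by 0.49 ± 0.12 (SE) on the log2 scale (edgeR adjusted p = 0.00626). *Rpp38* was higher too, at 7.49 to 16.3 RPM against 4.88 to 10.8 RPM, by 0.70 ± 0.16 (edgeR adjusted p = 0.00494). The crosses overlap in both genes. *Pop1* ran from 17.4 to 21.5 RPM in B6 × Cast and from 17.5 to 26.3 RPM in Cast × B6, a difference of 0.29 ± 0.11 (edgeR adjusted p = 0.0544, DESeq2 adjusted p = 0.0416). *Rpph1* was at 4.18 to 9.23 RPM in B6 × Cast and 3.39 to 5.61 RPM in Cast × B6, a difference of -0.46 ± 0.18 (edgeR adjusted p = 0.0645). Each cross held 2 litters of different age. In B6 × Cast the recorded ages were 58 to 63 and 48 to 50 somites, and in Cast × B6 they were 41 to 43 and 46 to 48. Cross, litter and age therefore cannot be told apart in these values. Without the oldest B6 × Cast litter, of 58 and 63 somites, *Rpph1* passed at -0.68 (edgeR adjusted p = 0.0113). That fit left only litter 5 in B6 × Cast and did not remove the age difference.

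*Rmrp* had the widest range of levels among F1 embryos of the 10 members. In Cast × B6, the 4 embryos of litter 1 (41 to 43 somites) held 1.97, 0.847, 0.870 and 0.314 RPM, and the 4 of litter 2 (46 to 48 somites) held 20.6, 41.7, 60 and 135 RPM. The litters do not overlap. In B6 × Cast the range was 2.73 to 41.8 RPM in litter 3 and 9.20 to 67.4 RPM in litter 5. *Rpph1* was also lower in litter 1 of Cast × B6 (3.39 to 4.42 RPM) than in litter 2 (4.97 to 5.61 RPM). A litter is a single observation of its age, so no test was made. All F1 embryos shared a HiSeq run. The other run was also HiSeq for litter 2 of Cast × B6, and GAIIx for litter 1 and the B6 × Cast litters. Litter, age and run therefore cannot be told apart, and the comparison of the crosses shares this imbalance. The BAF of *Rmrp* stayed between 0.458 and 0.580 in 15 of the 16 embryos, in litters with much and with little RNA alike, and the other embryo, at 0.75, had 6.00 B6 and 2.00 Cast votes.

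**Figure D5:**
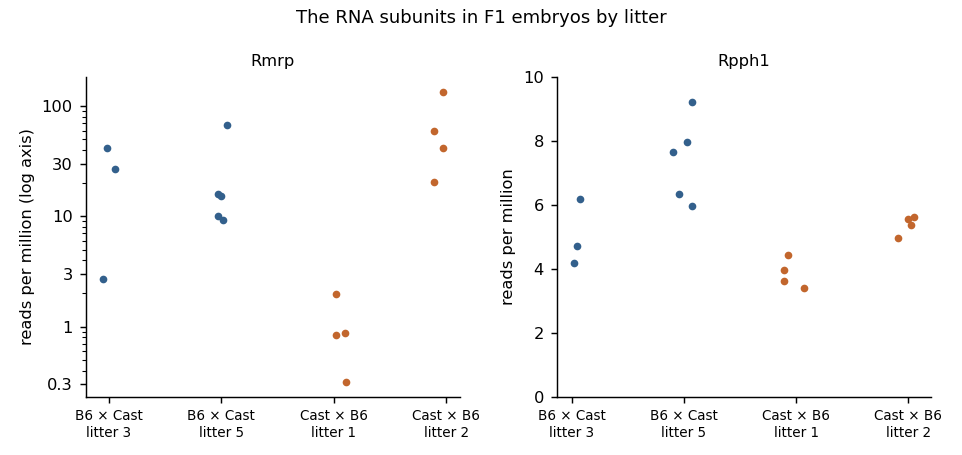
*Rmrp* (left, log axis) and *Rpph1* (right, linear axis) in RPM in single F1 embryos (points) by cross and litter (blue, B6 × Cast; orange, Cast × B6). Litter 1 of Cast × B6 holds 0.314 to 1.97 RPM of *Rmrp*, below every embryo of the other 3 litters, and 3.39 to 4.42 RPM of *Rpph1*.

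Between generations the 2 RNA subunits went apart. *Rmrp* had a mean of 28.1 ± 35.5 RPM (SD, n = 16) in F1 and 3.82 ± 4.69 RPM (n = 154) in N2 embryos, and *Rpph1* had 5.57 ± 1.63 and 9.40 ± 4.60 RPM. The F1 mean was 0.973 to 1.76 times the N2 mean in the 8 protein subunits. *Pop1* had 20.2 ± 3.01 RPM in F1 embryos, which are all B6/Cast at *Rpph1*, and thus lay between the 2 N2 classes. The F1 libraries were run in other batches than the N2 libraries, so generation and sequencing cannot be told apart.

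Among themselves the members were loosely tied. After lane, rho over the 45 pairs ran from -0.36 to 0.58 with a median of 0.07, and 14 pairs were above 0.2. The highest were *Pop4* with *Rpp40* (0.58), with *Rpp30* (0.48) and with *Rpp38* (0.47), and the lowest was *Pop4* with *Rpph1* (-0.36). The RNA subunits *Rpph1* and *Rmrp* had a rho of 0.32.

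Of the remaining subunits, *Rpp14* and *Rpp25* were in the tables. *Rpp14*, on chromosome 14, favoured B6 in all 16 F1 embryos, with a BAF of 0.656 in F1 and 0.676 in heterozygous N2 embryos (adjusted p = 5.44e-13), and was lower in embryos that were B6/Cast at its own place by -0.25 ± 0.08 (SE, q = 0.00548). By genotype at *Rpph1*, on the same chromosome, *Rpp14* differed by -0.19 ± 0.09 (SE). That is beyond the 0.17 under which 95% of genes off chromosome 14 lay. *Rpp25* differed by 0.09 ± 0.09 and passed no test.

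Other genes that work with these enzymes were read from the same fits, from lists of RNA polymerase III factors and of transfer RNA and ribosomal RNA processing, which were chosen with earlier results known. Of the RNA polymerase III subunits and promoter factors, 5 of 18 passed the test of their own genotype, 2 higher and 3 lower with Cast, beside 19.6% of all genes (10.4% higher and 9.20% lower), with a median of 0.04 beside 0.00 over all genes. *Snapc3*, a subunit of the complex that binds the promoters shown above, was higher by 0.67 ± 0.11 (SE) with a BAF of 0.204, and *Polr3a*, the largest polymerase subunit, by 0.31 ± 0.07 with 0.437. *Snapc5* was lower by -0.71 ± 0.11 with a BAF of 0.622 and *Crcp* by -0.34 ± 0.08 with 0.746. Over stage 3 of 18 passed, beside 22% of all genes, by Spearman's correlation without a lane term. *Pou2f1*, whose protein binds the octamer, fell with a rho of -0.30 (q = 0.00230) and *Snapc5* with -0.25 (q = 0.0176). *Polr3gl* rose with 0.22 (q = 0.0331). Lane and stage moved together in part, so lane and stage cannot be told apart in these values.

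Among genes for other steps of transfer RNA processing, 3 of 10 passed the test of their own genotype, beside 19.6% of all genes, all 3 lower with Cast (9.20% of all genes): *Tsen34*, a splicing endonuclease subunit (-0.68), *1110008L16Rik* (-0.34) and *Elac2*, which cuts the 3′ trailer (-0.17). Their list had a median of -0.04. Among genes for ribosomal RNA processing, 3 of 6 passed, beside 19.6% of all genes: *Wdr12* rose by 1.22 with a BAF of 0.186, and *Nol9* and *Pes1* fell by 0.41 and by 0.35 with BAFs of 0.569 and 0.832. *Wdr12* and *Pes1* belong to 1 complex of large-subunit assembly.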

How the data were processed

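Poly(A)+ RNA of single whole embryos was sequenced as 3SEQ libraries. The authors mapped the reads with Bowtie2 to mm9 and to a Cast version of it, dropped reads with a second match of similar quality, and deposited raw counts of reads on exons per gene. They also deposited estimated counts of allele votes, in which the SNPs of a read share 1 vote, and genotype codes per gene and embryo. The codes were read from the votes, since Cast took 0.194% of votes under B6/B6 and 50.0% under B6/Cast. The table of N2 counts had 8 columns that match no labelled embryo, which were not used, and 6 embryos without genotypes were left out. Both sequencing runs of an F1 embryo had been summed by the authors. The members and the gene lists were chosen with earlier results of these data known.

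Counts were scaled to RPM by the total on genes. Levels were compared by genotype of the embryo, and correlated with *Pop1*, as log2(RPM + 0.5) after lane means were removed. Stage and mother were tested on RPM with lane left in. As fits over all genes, these took genes that averaged 5 RPM or more. Each test ran over all genes that passed its minimum and was adjusted over all of them: the rank-sum test for a gene's own genotype, Spearman's correlation for stage in somites, a Mann-Whitney U test between the 2 kinds of mother, a paired test of library-scaled votes for allele fractions, an exact permutation test for parent of origin, and edgeR for the F1 crosses. Each was tested on simulated data. PEER, which the study used for hidden covariates, was replaced by lane, and by lane with 15 principal components as an alternative. Intervals of genotype differences cover the spread between embryos. Named genes were all members, genes of the listed pathways that passed a test, and the 5 most and 5 least like *Pop1*. Some genes are not reported here. Sequences were read from mm9, and promoter windows for the motif share came from RefSeq (GRCm38.p6). Tools were R 4.3.3, edgeR 4.0.16, DESeq2 1.42.0, limma 3.58.1, Python 3.11.15, numpy 2.4.6, pandas 2.3.3, scipy 1.17.1 and matplotlib 3.10.9.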

Additional observations from a re-analysis of the deposited data

Results flagged for a closer look

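In 3 of 32 groups of 8 F1 embryos, 1 embryo lay farther from its neighbours than Dixon's 95% limit allows. Chance gives such a gap in about 1 of 20 groups.

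The B6 allele fraction of *Pop4* was 0.674 in embryo 3 of litter 1 of Cast × B6 and 0.525 to 0.574 in the other embryos of that cross. The same embryo had 107 B6 and 8.00 Cast votes for *Rpp40*, a fraction of 0.930 at 13.8 RPM, and 0.563 for *Rpp30*. Without it, an alternative chosen after seeing the data, the fraction of *Pop4* over all embryos was 0.559 and was still past both bounds.

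The level of *Rpp21* was 164 RPM in an embryo of litter 5 of B6 × Cast and 184 to 201 RPM in the others of that cross. The level of *Rmrp* was 135 RPM in an embryo of litter 2 of Cast × B6 and 0.314 to 60 RPM in the others.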

How the results depend on the processing

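Of 473 alternative values, 34 for whole comparisons stayed within the limits of an unchanged count or value, and 376 for single genes kept their side of the threshold or, where untested, moved by less than their spread. Some values that passed in neither fit changed sign, such as stage in *Rpp38* (0.13 with F1 mothers), *Pop5* (0.14) and *Rpph1* (0.05) with lane in ranks and *Pop7* (-0.20) in flowcell 2. The allele test called 0 members in F1 embryos alone, with 5 at an unadjusted p under 0.05. The test of the own genotype called 0 with no covariate (2 unadjusted) and 4 with 15 principal components. For stage the number called was 1 with lane taken out of the ranks, 0 in edgeR and 0 in DESeq2 with lane (1 unadjusted in each), 0 over litter means (1 unadjusted) and 5 with B6 mothers alone. For the mother it was 0 in edgeR (5 unadjusted), 0 over litter means (3), 0 in flowcell 1 (6), 0 in flowcell 2 (6), and 3 with Benjamini-Hochberg adjustment. The correlation of *Pop5* with *Pop1* was -0.07 with no covariate, 0.02 in flowcell 1 and 0.36 in flowcell 2. Of values past the threshold in either fit, directions over stage reversed for *Pop7* (-0.27) with B6 mothers, for *Pop4* (0.19), *Pop1* (0.34) and *Rpp30* (0.01) with F1 mothers, for *Pop4* (0.02) and *Rpp40* (0.05) with lane in ranks, and for *Rpp40* in edgeR (0.02) and DESeq2 (0.03). The causes were not tested. The difference in *Pop1* by genotype at *Rpph1* lay between -0.71 and -0.21 over its alternatives, the ends being the backcrosses with B6 and with F1 mothers.

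No paired analysis was possible because embryo numbers only name embryos and restart in each litter. Littermates of both classes at *Rpph1* were compared within 26 litters for *Pop1*, with the B6/B6 mean higher in 23. Depth limits *Rmrp*, *Rpph1* and *Rpp38* most in N2 embryos, where 10 embryos had no read of *Rmrp*, and votes limit *Pop1*, *Pop5* and *Rpp38*. Lane and mother overlap almost wholly, and lane and stage in part.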
